A study of Homo sapiens with 26 samples.

Results

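TF-1 is an established human erythroleukemia line that depends on growth factors such as the cytokine GM-CSF. The comparison described here is between vehicle-treated TF-1 cultures harvested 264 h and 72 h after the first dose of vehicle, and so covers drift in culture without drug. It uses 7 of the 26 libraries of the series: 3 at 72 h and 4 at 264 h, all from batch 1 and all from DMSO cultures that passed the submitters' quality control. At 264 h these were the TET2-/- (KO) clones F4 and A12 and the clones A7 and C4, wild-type (WT) for TET2. At 72 h they were A12, A7 and C4, because the labels mark the 72 h library of F4 as failing quality control. All 7 cultures received DMSO, the solvent of 5-azacytidine, daily for 3 days, and all were kept in RPMI-1640 with 10% fetal bovine serum and passaged every 2 to 3 days. The 72 h harvest therefore followed dosing directly, and the 264 h harvest came after a period without it. Time since dosing, number of passages, and any difference in handling between the 2 harvests cannot be told apart. TET2 oxidises 5-methylcytosine in DNA, and both genotypes come as 2 clones of a single line, so the p-values do not describe independent lines. Each edgeR p-value rests on differences within clone pairs, with a spread estimated mostly across genes (2 residual and 144 prior degrees of freedom).

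GM-CSF acts through a receptor that shares the beta chain CSF2RB and switches on STAT5, which drives survival and growth genes and also its own inhibitors of the SOCS family. TF-1 cells sit between the erythroid and myeloid lineages, with the factors GATA1, GATA2 and TAL1 and low globin expression. In a culture that is fed and split repeatedly, genes of cytokine signalling, lipid synthesis, protein folding, ribosome production and mitochondrial expression are known to follow growth state.

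Total counts ran from 26278260 to 34604949 per library, 25338 to 26906 genes had a count, and levels are given in counts per 1000000 (CPM), where a library's 3 counts are worth 0.0867 to 0.114. Progenitor markers were present in all 7 libraries, at 77.7 to 92.6 CPM for GATA1, 279 to 443 CPM for CD34 and 208 to 278 CPM for CSF2RB. CSF2RA, the GM-CSF receptor alpha chain, was listed at 0 in each. Read mapping at this gene was not examined, so the 0 does not show that the gene was silent. Of the markers of other cell types, MS4A1, COL1A2 and DCN were at 0, while KRT18 (99.2 to 167 CPM), KRT8 (31.7 to 37.4 CPM) and CD3D (0.80 to 58.3 CPM) were counted. TET2 was at 46.2 CPM in KO clone A12, 26.8 in A7 and 29.4 in C4 at 72 h, and at 40.9 in A12, 28.8 in A7, 29.6 in C4 and 29.5 in KO clone F4 at 264 h. Counts over the whole gene do not show the altered part, so they do not check the genotype labels. They differed little between harvests (log2 difference -0.03, SE 0.06, edgeR quasi-likelihood adjusted p = 0.781). Same-clone libraries at 72 h and 264 h deviated together from their harvest means over 3000 variable genes (r = 0.809 for A12, 0.675 for A7 and 0.683 for C4). The WT libraries harvested before treatment did not follow their labels. Over 7455 genes of at least 20 CPM, their A7 minus C4 difference correlated at -0.713 with the same difference at 264 h in DMSO, where the 72 h and 264 h differences correlated at 0.842. Values from before treatment are therefore given below only as the range over the 4 clones, and no result rests on them.

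The drift between the 2 harvests was broad and small. Of 16447 genes tested, 2350 (14.3%) were called at an adjusted p under 0.05 in edgeR's quasi-likelihood test with a clone term. Of all genes tested, 1183 (7.19%) were higher at 264 h and 1167 (7.1%) lower. The median called gene moved by 0.18 on the log2 scale, a 1.13-fold difference, against a median of 0.10 over all genes tested. Only 102 called genes (0.62% of those tested) reached 1.5-fold, 35 upward and 67 downward, and 37 reached 2-fold, 9 upward and 28 downward. Most changes of at least 1.5-fold were in genes with few counts. A mean under 2 CPM in the higher harvest was held by 20 of the 35 rises and 44 of the 67 falls. Protein-coding genes made up 25 of the rises and 24 of the falls, and 16 falls were pseudogenes. The direction was the same in all 3 clone pairs for 2285 called genes (97.2%), beside 44.3% of all genes tested. The 4 libraries at 264 h did not overlap the 3 at 72 h for 901 called genes (38.3%), beside 9.34% of all genes tested. Genes were called on these same libraries, so the higher shares among called genes follow in part from the selection.

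**Figure D1:**
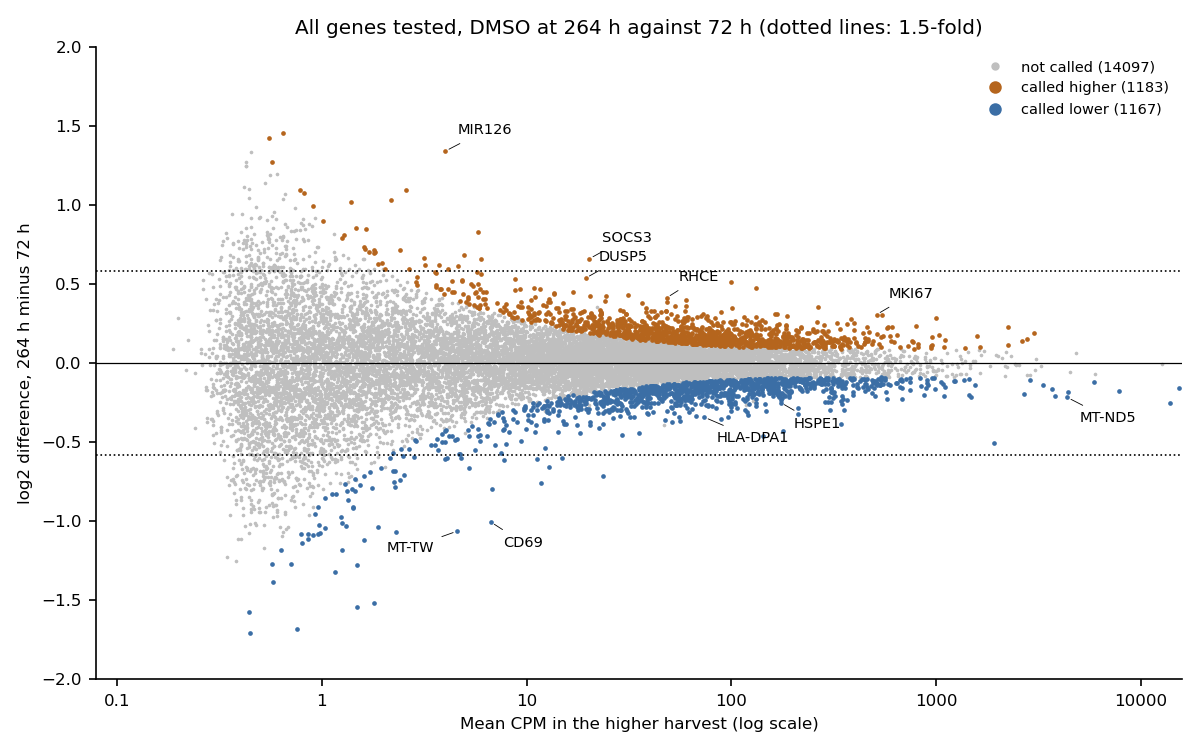
Each point is 1 of the 16447 genes tested, with its mean level in the higher harvest (CPM, log axis) on the x axis and its log2 difference, 264 h minus 72 h in DMSO, on the y axis; orange points are genes called higher, blue called lower, and dotted lines mark 1.5-fold. Most of the 2350 called genes lie between the dotted lines, and 102 lie outside them.

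The count of called genes rested on the pairing. Without the clone term, 4 libraries against 3, edgeR called 0 genes (1262 at an unadjusted p under 0.05), and with the failed 72 h library of F4 included to pair all 4 clones it called 0 (871 unadjusted). DESeq2 with the same terms called 787, all of them among the 2350, so that its counts in every gene list below are equal to or under those given, and left 8609 genes without an adjusted p. Without A12 edgeR called 1121 genes and without A7 1257, while 2058 were called without C4 and 2359 without F4. Because F4 has no partner at 72 h, its library gives a level at 264 h and adds nothing to the fold changes.

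Base composition moved with the harvest. The mean GC content of counted transcripts, weighted by counts, was 47.67% in A12, 47.65% in A7 and 47.91% in C4 at 72 h, and 48.02%, 47.97% and 48.01% in the same clones and 48.1% in F4 at 264 h, so the 2 harvests did not overlap. Among the genes with the lowest GC content (median 38.4%, the lowest of 5 equal groups) the median log2 difference was -0.07, with 1.94% called higher and 19.6% called lower. Among those with the highest (median 61.4%) it was 0.05, with 10.3% called higher and 1.35% lower. A fit with per-library correction for GC content and transcript length called 1581 genes, 780 higher and 801 lower, of which 1194 were among the 2316 called genes with a GC value. Its part in each gene's difference was not tested. Values with that correction are given below for named genes whose call it ended and for lists whose count of rises or falls it moved by over 1.5 times.

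**Figure D2:**
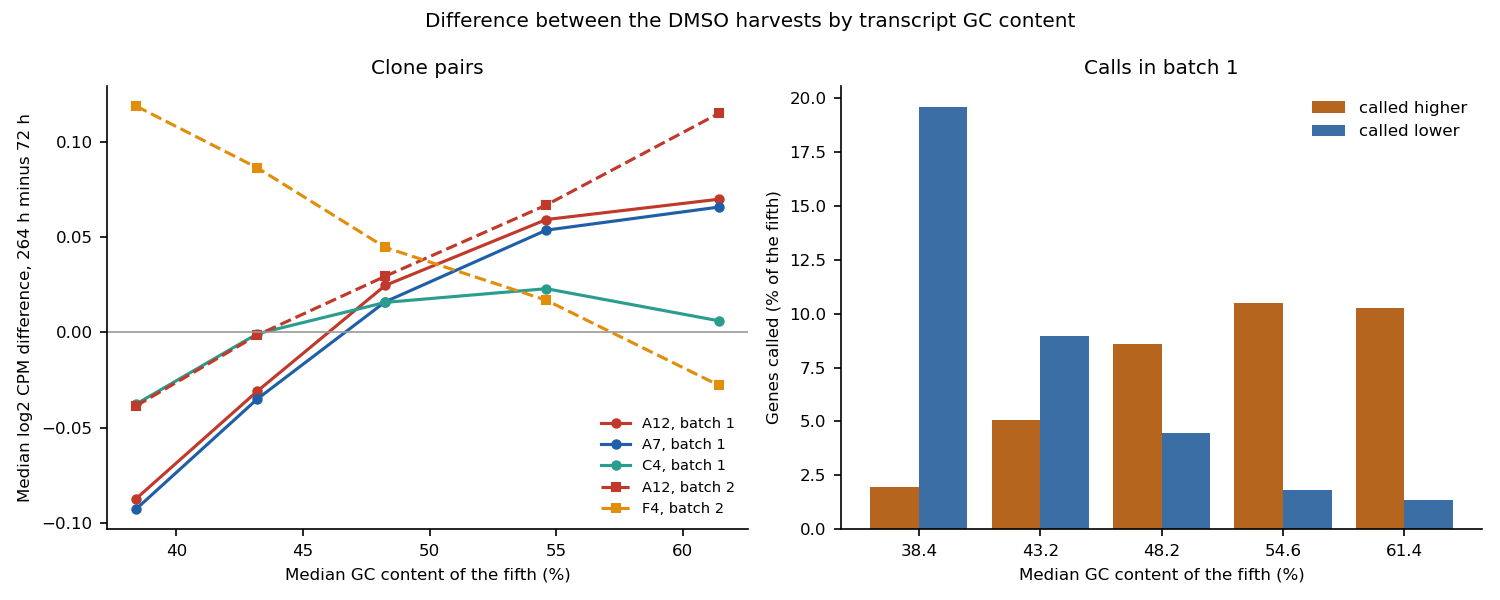
The left panel plots the median log2 CPM difference, 264 h minus 72 h in DMSO, against the median GC content (%) of 5 equal groups of genes, with solid lines for the clone pairs of batch 1 and dashed lines for those of batch 2; the right panel gives the percent of each group called higher (orange) or lower (blue) in batch 1. The lines of A12 and A7 run from -0.09 to 0.07 and that of C4 is flatter, the F4 pair of batch 2 runs from 0.12 to -0.03, and called falls drop from 19.6% to 1.35%.

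Among genes of at least 2 CPM the largest rise was in MIR126, the gene of the hairpin that yields miR-126, an abundant microRNA of endothelial and blood progenitor cells. MIR126 lies inside EGFL7 on chromosome 9 (hg19 positions 139565054 to 139565138), and the library was made from polyadenylated RNA, so its counts are of host or precursor RNA and the mature microRNAs were not measured. The mature sequences from RefSeq (GRCh38.p14) are shown because this rise and a fall described below are both in microRNA genes or hosts. Capitals mark the seed, bases 2 to 8.
miR-126-3p: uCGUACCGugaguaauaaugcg
miR-126-5p: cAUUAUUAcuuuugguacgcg
miR-221-3p: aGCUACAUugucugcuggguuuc
miR-222-3p: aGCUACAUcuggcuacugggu
MIR126 stood at 1.61 CPM in A12, 1.79 in A7 and 1.31 in C4 at 72 h, and at 2.96, 5.02 and 4.06 in the same clones and 3.64 in F4 at 264 h. All 4 later libraries were above all 3 earlier ones. The rise was 1.34 on the log2 scale (SE 0.18, edgeR adjusted p = 1.39e-09, none given by DESeq2), and libraries from before treatment held 3.40 to 7.37 CPM. EGFL7, whose exons and introns surround it, rose by less: from 208 to 236 CPM at 72 h to 251 to 255 CPM at 264 h (log2 difference 0.20, SE 0.03, edgeR adjusted p = 2.20e-06). The 2 genes overlap on the same strand, so reads shared between them cannot be told apart.

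The other genes with the largest rises, at a mean of 2 CPM or more over the 3 paired clones at 264 h, were CYP26B1 (log2 difference 1.10), which degrades retinoic acid, the transcription factor CREB5 (1.03), CAMSAP3 (0.71), which binds the minus ends of microtubules, and the long noncoding RNA MEG9 (0.69). They were followed by the inhibitor of cytokine signalling SOCS3 (0.66), the sodium-calcium exchanger SLC8A3 (0.66), ALS2CL (0.62), the sorting nexin SNX20 (0.62), the adrenergic receptor ADRA1D (0.61), SAXO2 (0.60) and the orphan receptor GPRC5B (0.60). Their adjusted p ran from 1.56e-12 for SOCS3 to 0.0433 for SAXO2, and most were genes of 1 to 7 CPM. CREB5 was counted mainly in A12, at 3.01 CPM at 72 h and 6.11 at 264 h, and lay below 3 counts' worth in C4 at both harvests (0.035 and 0.037 CPM). CYP26B1 went from 1.98 to 4.68 CPM in A12, from 0.71 to 2.19 in C4 and from 0.86 to 0.87 in A7, with 6.08 CPM in F4. Calls at this level depended on single clones. Without A12 the adjusted p was 0.451 for CREB5, 0.0993 for CAMSAP3, 0.115 for GPRC5B and 0.221 for SAXO2. Without A7 it was 0.0827 for ALS2CL, 0.101 for CAMSAP3, 0.233 for SNX20 and 0.134 for SAXO2, and without C4 0.162 for ALS2CL, 0.0520 for MEG9, 0.0662 for SNX20 and 0.135 for SAXO2. DESeq2 gave an adjusted p for SOCS3 alone among them.

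The largest falls were of another kind, with small structured RNAs among them. They were the small Cajal body RNA SCARNA9 (-1.07), the mitochondrial tryptophan and valine tRNAs MT-TW (-1.06) and MT-TV (-0.76), the activation antigen CD69 (-1.01), the mitochondrial-like sequences MTRNR2L2 (-0.79) and MTRNR2L8 (-0.75), the transglutaminase TGM5 (-0.79) and the complex I subunit NDUFV2 (-0.74). SNORD46 (-0.71), RD3 (-0.68), the cytochrome P450 CYP3A5 (-0.68) and MIR222HG (-0.66) completed the 12. Mean levels of the 12 at 264 h ran from 1.00 CPM for SCARNA9 to 7.20 CPM for MT-TV, and DESeq2 gave none an adjusted p. NDUFV2 was at 2.22 CPM in A12, 3.14 in A7 and 1.87 in C4 at 72 h. At 264 h it was at 1.12, 1.88 and 1.32 in those clones and 1.34 in F4. The 30 nuclear respiratory chain genes tested summed to 6560 to 7424 CPM at 72 h, so NDUFV2 held few counts for such a gene. CD69, an early marker of activated leukocytes, was at 7.56 CPM in A12, 5.08 in A7 and 7.44 in C4 at 72 h, and at 3.56, 2.96 and 3.43 in those clones and 4.61 in F4 at 264 h. No 264 h library reached the lowest 72 h value, and edgeR's adjusted p was 1.44e-09 (SE 0.13). MT-TW went from 4.14, 5.23 and 4.37 CPM in A12, A7 and C4 to 1.65, 3.21 and 1.79, with 2.30 in F4, again without overlap (SE 0.16, adjusted p = 1.24e-07). MTRNR2L2 and MTRNR2L8 are nuclear copies of mitochondrial sequence, so their reads may be shared with the mitochondrial genome. Without A12 the adjusted p was 0.274 for CYP3A5, 0.190 for TGM5, 0.0919 for NDUFV2 and 0.0868 for SNORD46. Without A7 it was 0.143 for RD3, 0.0665 for MTRNR2L8 and 0.0663 for NDUFV2, and without C4 0.264 for RD3, 0.135 for MTRNR2L8, 0.0750 for CYP3A5 and 0.0515 for SNORD46.

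MIR222HG is the host transcript of miR-221 and miR-222, which share the seed GCUACAU in the sequences above and are known as repressors of KIT in erythroid cells. It stood at 6.81 CPM in A12, 4.85 in A7 and 4.02 in C4 at 72 h, and at 3.97, 3.14 and 2.74 in the same clones and 3.16 in F4 at 264 h. Each clone was lower at the later harvest and the 2 groups did not overlap (log2 difference -0.66, SE 0.14, edgeR adjusted p = 0.000268). KIT, the stem cell factor receptor, was at 10.4, 21.7 and 14.5 CPM in A12, A7 and C4 at 72 h, and at 12.3, 23.7 and 17.8 with 22.5 in F4 at 264 h. Its difference was 0.22 (SE 0.07, adjusted p = 0.0290), with adjusted p of 0.147 without A12, 0.0751 without A7, 0.178 without C4 and 0.230 in DESeq2.

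Among abundant genes, which carry less counting error, the 5 largest changes in each direction at 50 CPM or more were picked after the values were seen. The rises were PAQR8 (0.52), a membrane progesterone receptor, HSPG2 (0.47), which encodes the matrix proteoglycan perlecan, CSF1 (0.40), the macrophage colony-stimulating factor, the Rh blood group gene RHD (0.36), and the scaffold AHNAK (0.36). PAQR8 was at 60.3, 70.5 and 78.3 CPM in A12, A7 and C4 at 72 h, and at 90.8, 101 and 106 with 93.4 in F4 at 264 h. All 4 later libraries were higher than all 3 earlier ones (SE 0.04, edgeR adjusted p = 8.91e-22). The falls were MT-RNR1 (-0.51), the mitochondrial small ribosomal RNA, SNHG1 (-0.46) and RABGGTB (-0.38), whose introns hold small nucleolar RNAs, RBM3 (-0.43), an RNA-binding protein known to be induced by mild cold, and the leucine tRNA MT-TL1 (-0.38). RBM3 went from 188, 189 and 157 CPM in A12, A7 and C4 to 133, 146 and 116, with 134 in F4 (SE 0.04, edgeR adjusted p = 2.63e-20). SNHG1 went from 163, 146 and 120 CPM to 113, 105 and 93.3, with 95.2 in F4. For RBM3 and SNHG1 too the groups did not overlap, and the 10 genes kept their calls without any single clone, in DESeq2 and with GC and length correction.

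**Figure D3:**
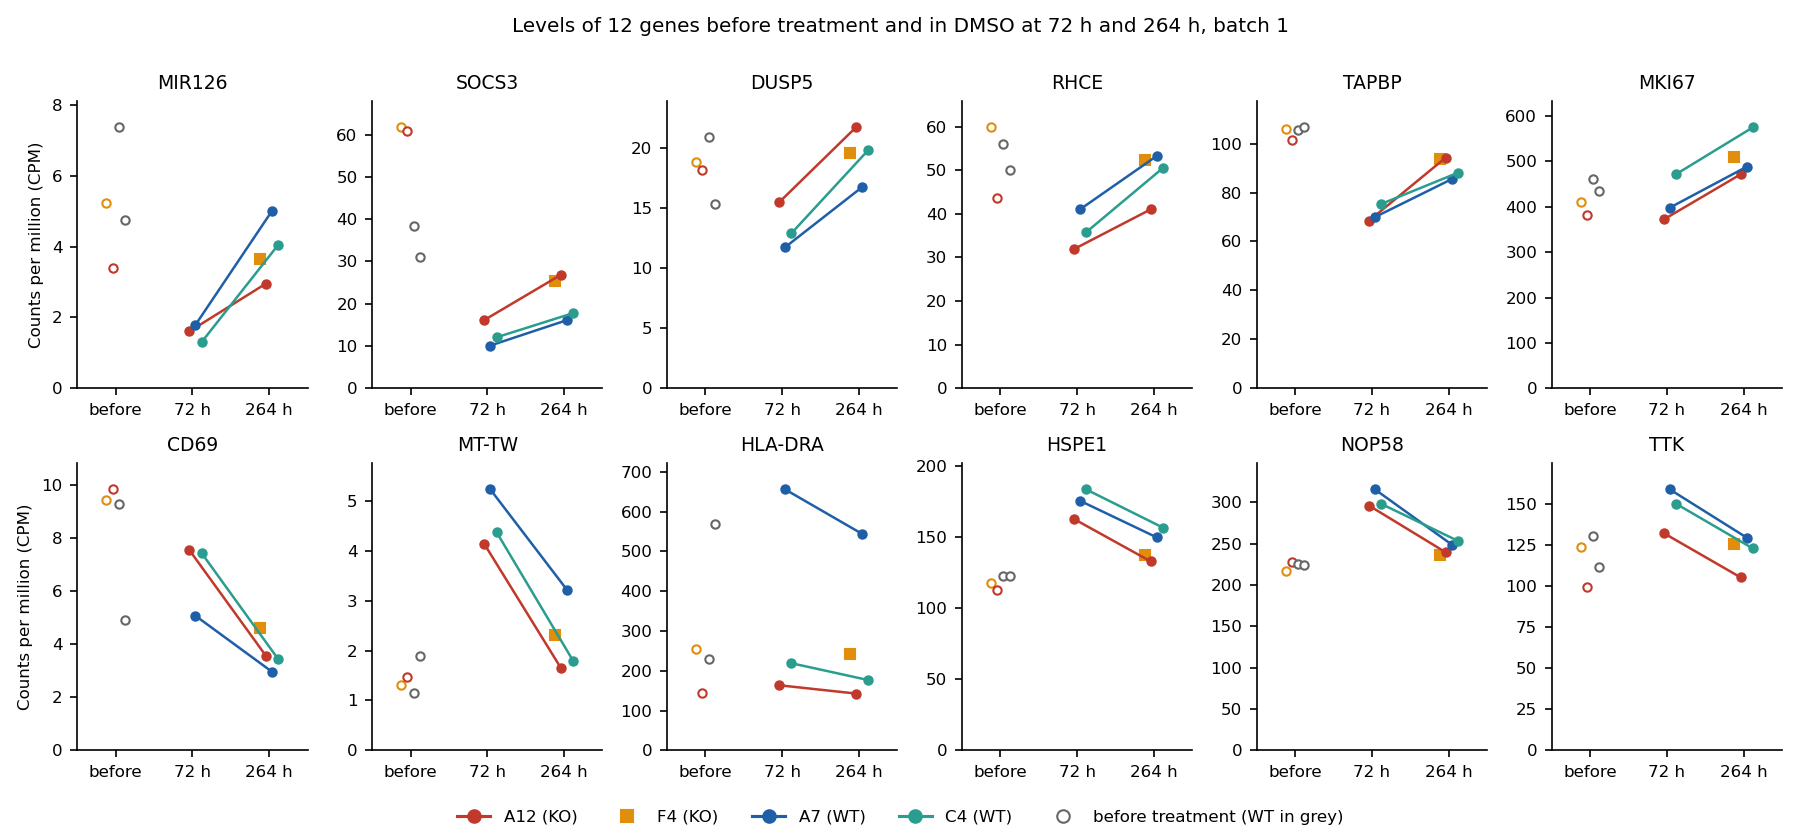
Each panel is 1 gene, with the harvest on the x axis and the level (CPM, axis from 0) on the y axis; lines join the 72 h and 264 h DMSO libraries of a clone, the square is F4 at 264 h, and open circles are libraries from before treatment, with WT in grey because their clone labels are in doubt. MIR126, DUSP5 and TAPBP lie higher and CD69, MT-TW, HSPE1, NOP58 and TTK lower at 264 h with no overlap, while for HLA-DRA clones differ more from each other than between harvests.

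Genes of GM-CSF and STAT5 signalling moved in both directions. Of 24 tested, 7 were higher and 4 lower, beside 7.19% and 7.1% of all genes tested, and the median log2 difference was 0.06. The inhibitor SOCS3 was at 16.1 CPM in A12, 10.1 in A7 and 12.1 in C4 at 72 h, and at 26.9, 16.1 and 17.8 in those clones and 25.3 in F4 at 264 h. Each clone was higher at the later harvest, although A7 at 264 h equalled A12 at 72 h (log2 difference 0.66, SE 0.07, edgeR adjusted p = 1.56e-12, and 2.35e-06 in DESeq2). Before treatment SOCS3 held 31.1 to 61.7 CPM. DUSP5, a phosphatase of the ERK kinases, was at 15.5, 11.8 and 12.9 CPM in A12, A7 and C4 at 72 h, and at 21.7, 16.8 and 19.8 with 19.6 in F4 at 264 h. Its 2 groups did not overlap (log2 difference 0.54, SE 0.07, edgeR adjusted p = 4.90e-09, none given by DESeq2). ID1, an inhibitor of differentiation factors (0.22), and STAT5B itself (0.19) rose by less, and the STAT5-induced cytokine OSM (-0.34) and kinase PIM1 (-0.15) fell. CISH, the textbook STAT5 target, was at 32.9 to 37.96 CPM at 72 h and 32.2 to 37.1 CPM at 264 h (log2 difference -0.02, adjusted p = 0.850). Without A12 the adjusted p of PIM1 was 0.115.

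Immediate early genes, which growth signals induce within minutes, gave 1 rise and 2 falls among 17 tested, shares near the 7.19% and 7.1% of all genes, and 1 and 0 without A12. MYC, the growth regulator, rose from 510, 505 and 447 CPM in A12, A7 and C4 to 587, 566 and 497, with 513 in F4 (log2 difference 0.17, SE 0.03, edgeR adjusted p = 2.51e-05). JUND, a subunit of AP-1, fell by 0.15 and had an adjusted p of 0.111 without A12. In the list of NF-kB and cytokine genes, 3 of 15 tested rose and CD69 fell, beside 7.19% and 7.1% of all genes. The risers were the cytokine IL1B (0.22), the NF-kB subunit NFKB2 (0.26) and the adhesion molecule ICAM1 (0.17). ICAM1 had an adjusted p of 0.239 without A12, 0.0614 without C4, 0.135 in DESeq2 and 0.0810 with GC and length correction.

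Genes of red cells rose more often than they fell in batch 1, by small amounts. Of 19 erythroid regulators and receptors tested, 8 rose and 1 fell (median log2 difference 0.11), and of 20 red cell membrane genes 6 rose and none fell (median 0.11), beside 7.19% higher and 7.1% lower over all genes. Heme synthesis and iron genes gave 3 rises and 1 fall of 21 (median 0.01), and 1 and 1 without A12 or without A7. In batch 2 the medians of the regulators were 0.06 in A12 and -0.02 in F4, and those of the membrane genes 0.08 and -0.01. RHCE, which encodes an Rh blood group protein, was at 31.9, 41.0 and 35.8 CPM in A12, A7 and C4 at 72 h, and at 41.0, 53.3 and 50.5 with 52.3 in F4 at 264 h. Each clone was higher at the later harvest, and only A12 at 264 h fell within the 72 h range (log2 difference 0.41, SE 0.05, edgeR adjusted p = 5.86e-11). Its neighbour RHD rose from 32.4, 49.1 and 42.4 CPM to 43.3, 61.6 and 53.9, with 62.5 in F4 (log2 difference 0.36, SE 0.05). RHCE and RHD are near-identical copies, and how reads divide between them is not certain. The membrane skeleton genes ANK1 (0.19) and EPB41 (0.13) and the adhesion protein BCAM (0.26) rose as well.

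Of the regulators, ZFPM1, the cofactor of GATA1, rose by 0.22 from 62.6, 65.1 and 71.3 CPM in A12, A7 and C4 to 75.3, 74.4 and 82.7, with 71.6 in F4 (SE 0.04, adjusted p = 1.84e-05, edgeR). The corepressor CBFA2T3 (0.16), the erythroid factor KLF1 (0.16) and TAL1 (0.12) also rose, while RHAG, the Rh-associated glycoprotein, fell by 0.13. GATA1 itself was not called (0.05, adjusted p = 0.509). These counts leaned on single clones and on base composition. For the regulators 2 were higher and none lower without A12, 2 and 1 without A7, which is near the share over all genes, and 3 and none with GC and length correction, and for the membrane genes 4 were higher in each of those settings. The adjusted p with that correction was 0.108 for ANK1, 0.0593 for CBFA2T3, 0.263 for TAL1 and 0.197 for RHAG. Without A12 it was 0.0606 for CBFA2T3, 0.0669 for KLF1, 0.0797 for EPB41 and 0.244 for RHAG, and without A7 it was 0.0869 for BCAM, 0.215 for KLF1 and 0.223 for TAL1. DESeq2 gave 0.0559 for BCAM and 0.0671 for KLF1.

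Globin genes differed far more between clones than between harvests. HBA2, an alpha globin gene, was at 28.7 CPM in A12, 120 in A7 and 197 in C4 at 72 h, and at 33.8, 162 and 214 in those clones and 52.3 in F4 at 264 h. Each clone was higher at 264 h (log2 difference 0.26, SE 0.04, edgeR adjusted p = 9.49e-06), with an adjusted p of 0.0546 without A7 and 0.0592 in DESeq2. HBD, the delta globin gene, rose by 0.44 at 2.1 to 7.1 CPM and had adjusted p of 0.101 without A7 and 0.161 without C4. The fetal gene HBG2 moved in different directions in the 3 pairs, by -0.42 in A12, 0.29 in A7 and -0.63 in C4 on the log2 scale, from 16.8, 63.7 and 275 CPM, and was not called (adjusted p = 0.684). HBA2 and HBD were the only called genes of 10 hemoglobin genes tested, beside 14.3% called over all genes. Without A7 the count of hemoglobin genes turned to 0 higher and 2 lower.

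Markers of mast cells and basophils, a lineage close to this line, gave 3 rises and 1 fall among 14 tested, beside 7.19% and 7.1% of all genes. The counts were 1 and 2 without A12 or without C4, and 1 and 1 without A7, with rises near that share. FCER1A, a chain of the IgE receptor, was at 142 CPM in A12, 75.7 in A7 and 75.2 in C4 at 72 h, and at 127, 61.2 and 59.7 with 121 in F4 at 264 h. It was lower in each clone (log2 difference -0.26, SE 0.04, edgeR adjusted p = 1.78e-07). GATA2, the progenitor factor, rose by 0.18 from 475 to 695 CPM over the 72 h libraries to 521 to 823 CPM over those at 264 h. CPA3, a mast cell protease, rose by 0.70 at 1 to 2.3 CPM, and KIT is given above. The adjusted p of CPA3 was 0.174 without A12, 0.110 without A7 and 0.0731 without C4.

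The cell cycle lists did not move as wholes. Of 30 genes of G2/M and mitosis 3 rose and 10 fell (median -0.06), beside 7.19% and 7.1% of all genes. Without A7 the falls were 6, and the joint fit of both batches held 0 rises and 1 fall. Of 29 genes of G1/S and replication 2 rose and 3 fell, which is near the share over all genes, with 1 and 3 without A12 and 1 and 1 without A7. MKI67, the proliferation antigen, was at 372, 398 and 472 CPM in A12, A7 and C4 at 72 h, and at 471, 488 and 575 with 509 in F4 at 264 h. It rose in each clone (log2 difference 0.31, SE 0.03, edgeR adjusted p = 2.57e-13). The mitotic checkpoint kinase TTK moved the other way, from 132, 159 and 150 CPM to 105, 130 and 123, with 126 in F4, and its groups did not overlap (log2 difference -0.30, SE 0.04, adjusted p = 2.64e-11, edgeR). The cyclin-dependent kinase CDK1 (-0.20) and the spindle proteins HMMR (-0.17) and DLGAP5 (-0.17) fell. With GC and length correction the mitotic list held 1 rise and 4 falls, and the adjusted p was 0.143 for HMMR and 0.0920 for DLGAP5. Among the replication genes the licensing factor CDT1 rose by 0.24, while CDC6, also a licensing factor (-0.16), and the checkpoint mediator CLSPN (-0.16) fell. CDC6 had an adjusted p of 0.0674 without A12, 0.0873 without A7 and 0.0804 in DESeq2, and CLSPN 0.0847 in DESeq2. None of 13 replication-dependent histone genes was called (median -0.26), at a summed 22.7 to 28.7 CPM at 72 h and 15.3 to 26.5 CPM at 264 h; their transcripts lack poly(A) tails and are poorly captured by such libraries.

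Cholesterol genes rose more often than they fell, and fatty acid genes moved in both directions. Of 25 genes of cholesterol synthesis and uptake 7 rose and 1 fell (median 0.05), and of 14 of fatty acid synthesis and desaturation 3 rose and 2 fell, beside 7.19% and 7.1% of all genes. The falls of fatty acid genes were 1 without A12, A7 or C4 and with GC and length correction. SCD, the desaturase that makes monounsaturated fatty acids, was at 522, 456 and 498 CPM in A12, A7 and C4 at 72 h, and at 612, 529 and 584 with 526 in F4 at 264 h. The groups did not overlap (log2 difference 0.22, SE 0.03, edgeR adjusted p = 3.00e-08), and before treatment SCD held 680 to 797 CPM. The squalene synthase gene FDFT1 (0.15) and the fatty acid synthase gene FASN (0.17) rose, while the isomerase gene IDI1 (-0.14) and the fatty acid binding protein gene FABP5 (-0.23) fell. The cholesterol count was 2 higher and 1 lower without A12, with rises near the share over all genes. It was 3 and 1 without A7, and 4 and 0 with GC and length correction. The list's median was 0.07 in the A12 pair, -0.01 in A7 and 0.05 in C4. Without A12 the adjusted p was 0.111 for FDFT1. With the correction it was 0.221 for FASN and 0.0551 for IDI1.

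Chaperone genes fell more often than they rose. Of 23 heat shock and unfolded protein response genes 3 rose and 8 fell (median -0.06), beside 7.19% and 7.1% of all genes. After GC and length correction 1 rose and 8 fell. In batch 2 the list's median was -0.04 in A12 and 0.05 in F4, and the joint fit of both batches held 2 rises and 3 falls. HSP90B1, the chaperone of the endoplasmic reticulum also called GRP94, was at 1047, 1187 and 1043 CPM in A12, A7 and C4 at 72 h, and at 886, 992 and 952 with 908 in F4 at 264 h. Every 264 h library lay below every 72 h library (log2 difference -0.21, SE 0.03, edgeR adjusted p = 2.96e-07). The mitochondrial chaperonin HSPE1 (-0.25), the cytosolic chaperone HSP90AA1 (-0.16) and HSPA5 (-0.16), known as BiP, fell too, while the small heat shock protein gene HSPB1 rose by 0.16. The adjusted p of HSPA5 was 0.119 without A7 and that of HSPB1 0.0948 without A12. Without A12 the list held 0 rises and 6 falls, and without A7 1 and 4.

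Ribosome biogenesis genes gave 2 rises and 6 falls among 27 tested (median -0.03), beside 7.19% and 7.1% of all genes. With GC and length correction they gave 1 and 10. NOP58, a core protein of box C/D small nucleolar RNPs, was at 296, 316 and 298 CPM in A12, A7 and C4 at 72 h, and at 240, 249 and 254 with 237 in F4 at 264 h. Its groups did not overlap (log2 difference -0.29, SE 0.03, edgeR adjusted p = 4.34e-12). The nucleolar GTPase GNL3 (-0.23) and the helicase DDX21 (-0.16) fell, while CAD, which starts pyrimidine synthesis, rose by 0.19. Falls in this list were 3 without A12, 4 without A7 and 8 without C4. Of 37 cytosolic ribosomal protein genes 4 rose and 8 fell, beside the same shares over all genes. The counts were 1 and 3 without A12, 1 and 7 without A7, and 4 and 5 with GC and length correction. Their summed level was 38660 to 40230 CPM at 72 h and 38630 to 40200 CPM at 264 h.

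Most protein genes of the mitochondrial genome fell. Of its 13 protein genes 9 fell and none rose (median -0.17), beside 7.1% lower and 7.19% higher over all genes. After GC and length correction there were 7 falls and 1 rise. Mitochondrial transcripts took 7.92% of counts in A12, 7.56% in A7 and 7.18% in C4 at 72 h, and 6.86%, 7.05% and 6.33% in those clones and 6.36% in F4 at 264 h. No 264 h library reached the 72 h range. In batch 2 that share went from 7.12% to 6.75% in A12 and from 6.51% to 6.64% in F4, and the list's median was -0.13 in A12 and 0.04 in F4, with MT-CYB at 0.04 and 0.26. MT-ND2, a complex I subunit gene, was at 3674, 3789 and 4007 CPM in A12, A7 and C4 at 72 h, and at 3190, 3354 and 3385 with 3248 in F4 at 264 h (log2 difference -0.21, SE 0.03, edgeR adjusted p = 1.31e-06). The complex III gene MT-CYB (-0.20) and the complex I genes MT-ND3 (-0.20), MT-ND5 (-0.22) and MT-ND6 (-0.22) moved alike. MT-ND3 had an adjusted p of 0.1002 with the correction. Since all levels are shares of a library, fewer mitochondria per cell and less mitochondrial RNA per mitochondrion cannot be told apart. The nuclear genes of the respiratory chain gave 1 rise and 7 falls among 30 tested, beside 7.19% and 7.1% of all genes. The counts were 1 and 3 with the correction, and 0 and 1 without A12, 0 and 4 without A7, 1 and 4 without C4.

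Genes were also grouped by RNA class, after the values were seen. Of 22 mitochondrial tRNA genes tested, 12 (54.55%) were called lower, beside 7.1% over all genes, and none higher. Their median was -0.41, and 17 were lower in all 3 pairs, beside 2861 of the 12700 protein-coding genes. Of 68 small nucleolar and small Cajal body RNAs 9 (13.24%) were called lower and none higher (median -0.25), and 26 were lower in all 3 pairs. Of 625 processed pseudogenes 25 were called lower, 4.0% against 7.1% over all genes, and 1 higher, with pair medians of -0.02 in A12, -0.29 in A7 and -0.15 in C4. The 12700 protein-coding genes had a median of 0.01, with 1132 higher and 1058 lower. The histidine tRNA MT-TH was at 15.6, 17.0 and 11.9 CPM in A12, A7 and C4 at 72 h, and at 10.6, 10.7 and 8.07 with 9.50 in F4 at 264 h (log2 difference -0.60, SE 0.08, edgeR adjusted p = 1.45e-08). With GC and length correction 7 mitochondrial tRNAs (median -0.24), 3 small nucleolar or Cajal body RNAs (median -0.11) and 10 pseudogenes were called lower. That fit called 801 of all 15942 genes lower. The share of small nucleolar and Cajal body RNAs was near that over all genes, and the share of pseudogenes was below it. Small nucleolar RNAs lack poly(A) tails and are carried over into an mRNA library in varying amounts, and the yield of that carry-over in each library was not tested.

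**Figure D4:**
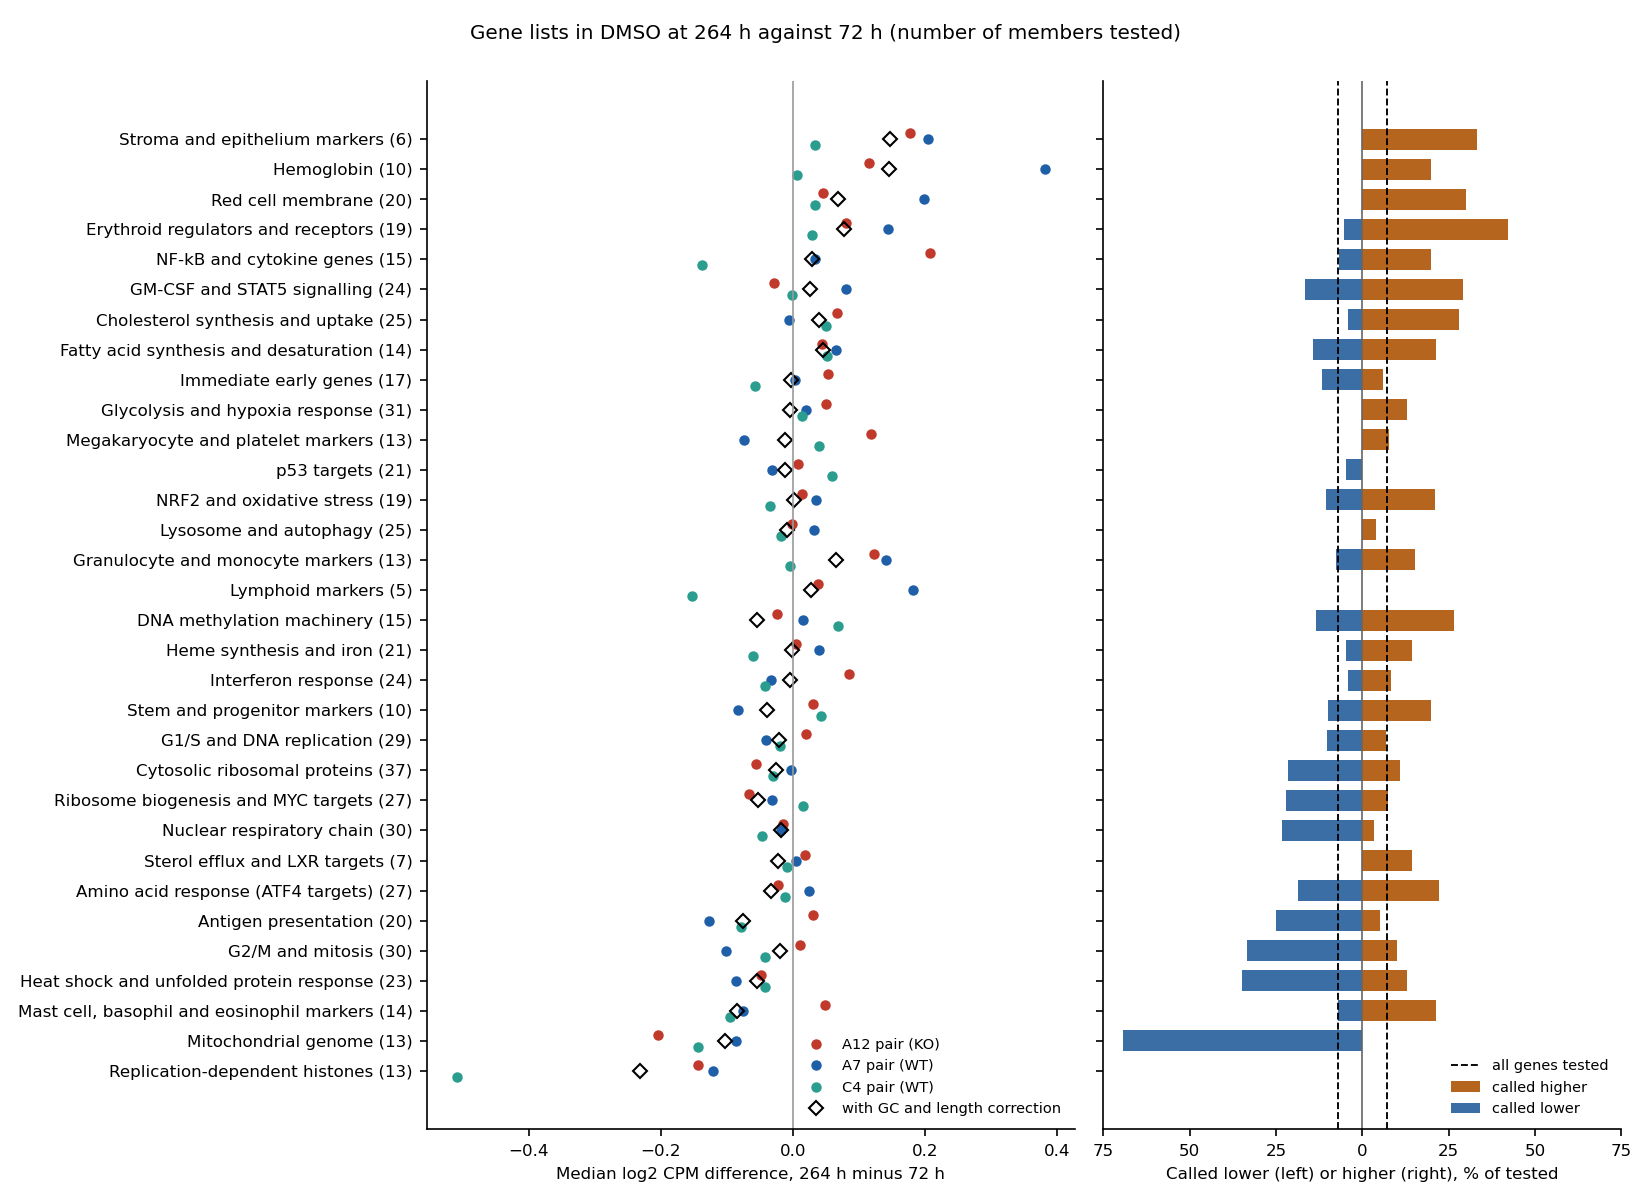
Rows are the 32 gene lists with the number of members tested; the left panel gives each list's median log2 CPM difference, 264 h minus 72 h in DMSO, in each clone pair (circles) and after GC and length correction (diamonds), and the right panel the percent of members called lower or higher, with dashed lines at the 7.1% and 7.19% over all genes tested. The mitochondrial genome has 9 of 13 members called lower and none higher, the red cell membrane list has 6 of 20 higher and none lower, and most medians lie close to 0.

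Of 20 antigen presentation genes tested, 5 fell, 1 rose and 14 were not called, beside 7.1% lower and 7.19% higher over all genes. The 5 that fell were all of HLA class II, which presents peptides to CD4+ T cells: HLA-DRA, HLA-DPA1, HLA-DPB1, HLA-DRB1 and HLA-DMA. Class II promoters are known to hold a CCAAT box, read as ATTGG on the other strand, beside the sites through which the coactivator CIITA acts. The 100 bases before the start of 3 of the genes are shown for that shared element, 5′ to 3′ on the gene's strand from RefSeq (GRCh38.p14), with ATTGG or CCAAT in capitals.
HLA-DRB1 chr6:32589849-32589948 (minus strand): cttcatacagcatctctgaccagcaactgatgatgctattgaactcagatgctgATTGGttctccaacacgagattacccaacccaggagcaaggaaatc
HLA-DPB1 chr6:33075890-33075989 (plus strand): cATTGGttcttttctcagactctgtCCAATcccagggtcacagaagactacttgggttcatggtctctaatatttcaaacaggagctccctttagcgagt
HLA-DMA chr6:32953098-32953197 (minus strand): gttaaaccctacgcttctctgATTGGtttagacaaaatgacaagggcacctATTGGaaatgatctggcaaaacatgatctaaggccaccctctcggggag
ATTGG was searched on both strands from 250 bases before to 50 after each start. It stood in the windows of these 3 genes, in neither window of HLA-DPA1, and in 34.6% of all 35116 windows, and a match is a description of letters only.

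HLA-DRA was at 164 CPM in A12, 656 in A7 and 219 in C4 at 72 h, and at 143, 544 and 177 in those clones and 243 in F4 at 264 h. Clones spread widely, but each was lower at 264 h (log2 difference -0.26, SE 0.03, edgeR adjusted p = 1.16e-09). HLA-DPA1 went from 29.6, 159 and 32.9 CPM to 27.1, 121 and 23.8, with 44.4 in F4 (log2 difference -0.34, SE 0.05, adjusted p = 1.17e-08, edgeR). HLA-DPB1 (-0.25), HLA-DRB1 (-0.12) and, outside the list, HLA-DQA1 (-0.61, at 1.2 to 8.5 CPM) fell as well. Without A7, the clone with the highest class II levels, the adjusted p was 0.481 for HLA-DPB1, 0.626 for HLA-DRB1 and 0.442 for HLA-DQA1, and the list held 1 rise and 2 falls. DESeq2 gave 0.159 for HLA-DPB1 and 0.274 for HLA-DRB1, whose adjusted p without C4 was 0.0758. CIITA was at 27.7, 82.2 and 31.04 CPM in A12, A7 and C4 at 72 h, and at 31.5, 79.7 and 34.0 with 42.7 in F4 at 264 h, and was not called (log2 difference 0.07, adjusted p = 0.382). The gene that rose was TAPBP, tapasin, of the class I pathway, from 68.4, 70.0 and 75.3 CPM to 94.2, 85.5 and 88.1, with 93.5 in F4 (log2 difference 0.33, SE 0.04, edgeR adjusted p = 3.85e-10).

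The DNA methylation machinery, which includes the methyltransferases that 5-azacytidine targets, gave 4 rises and 2 falls among 15 tested, beside 7.19% and 7.1% of all genes, with 2 and 2 without A12 and 2 and 1 without A7. DNMT1, the maintenance methyltransferase, was at 463, 483 and 486 CPM in A12, A7 and C4 at 72 h, and at 524, 535 and 546 with 527 in F4 at 264 h. All 4 later libraries were above all 3 earlier ones (log2 difference 0.16, SE 0.03, edgeR adjusted p = 5.83e-05). The de novo methyltransferase DNMT3B (0.15) and the 5-methylcytosine oxidase TET1 (0.29) rose, while the glycosylase TDG (-0.17) and the methyl-DNA reader ZBTB33 (-0.17) fell. DNMT3A (0.04, adjusted p = 0.767) and TET3 (0.07, adjusted p = 0.342) were not called. With GC and length correction the count was 2 and 1, and the adjusted p was 0.110 for DNMT3B, 0.0555 for TDG and 0.132 for ZBTB33. TET1 had 0.0645 without A12, 0.0608 without A7 and 0.0745 in DESeq2, DNMT3B 0.0559 without C4 and 0.0722 in DESeq2, and ZBTB33 0.178 without A7 and 0.0749 in DESeq2.

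The remaining lists are given by their counts, to be read beside 7.19% higher and 7.1% lower over all genes. Of genes of the amino acid response that ATF4 controls, 6 of 27 rose and 5 fell, with 2 and 3 without A12, 4 and 1 without A7, and 3 and 5 with GC and length correction. Of those of the NRF2 and oxidative stress response, 4 of 19 rose and 2 fell, with 1 and 0 without A12, 2 and 2 without A7, and 3 and 1 with the correction. Glycolysis and hypoxia genes gave 4 rises and 0 falls of 31, with 2 and 1 without A12, 1 and 0 without A7, 5 and 1 without C4, and 2 and 3 with the correction. Granulocyte and monocyte markers gave 2 rises and 1 fall of 13, none of either without A12, 1 and 1 without A7, 2 and 0 without C4, and none of either with the correction. Stem and progenitor markers gave 2 and 1 of 10, with 1 and 1 without A12, 1 and 0 without C4, and 1 and 2 with the correction. Stroma and epithelium markers gave 2 and 0 of 6 (KRT18 and KDR), with 1 and 0 without A7. Single or few genes were called for the interferon response (2 rises and 1 fall of 24, 1 and 1 without A12, 3 and 0 with the correction), megakaryocyte markers (1 rise of 13), lysosome and autophagy (1 rise of 25) and p53 targets (1 fall of 21, none without A12 or without A7, and 1 rise with the correction). The correction added 1 fall each to the megakaryocyte and lysosome lists. Sterol efflux genes gave 1 rise of 7, and none of 5 lymphoid markers was called.

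Batch 2 holds DMSO cultures of the KO clones A12 and F4 harvested at the same 2 times, and shares no library with the comparison above, so it gives the difference between the 2 harvests in other cultures. Of the genes called higher, 779 (65.85%) were higher in both batch 2 pairs, beside 39.76% of all genes tested. Of those called lower, 417 (35.73%) were lower in both, beside 27.91%. The clones parted over the falls. The A12 pair was lower for 73.18% of the genes called lower, beside 45.76% of all genes tested. The F4 pair was lower for 39.76% of the genes called lower, beside 42.38% of all genes tested. Among changes of at least 1.5-fold, most of them in genes under 2 CPM, 19 of 35 rises (54.29%) and 41 of 67 falls (61.19%) had the same sign in both. In a joint fit of the 11 DMSO libraries of both batches, 931 genes were called, 609 higher and 322 lower, and 766 of them were among the 2350.

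Some genes named above had the same sign in both batch 2 pairs. SOCS3 was higher by 2.00 on the log2 scale in A12 and 1.06 in F4, DUSP5 by 0.73 and 0.66, and SCD by 0.49 and 0.41. SCARNA9 differed by -2.52 and -1.25, MT-TW by -2.03 and -1.62, SNHG1 by -1.35 and -0.92, and MIR222HG by -1.40 and -0.45. PAQR8 (0.51 and 0.59), RBM3 (-0.50 and -0.40), RHCE (0.41 and 0.36) and TAPBP (0.25 and 0.36) differed by amounts like those in batch 1. Others did not keep their sign. These genes are examples, and the shares over all called genes are those given above. MKI67 differed by -0.19 in A12 and -0.44 in F4, and MIR126 by 0.64 and -0.64. CDK1 (0.13 and 0.30), OSM (0.30 and 0.09), CAD (-0.14 and -0.29), IDI1 (0.36 and 0.36) and ZBTB33 (0.11 and 0.24) had the opposite sign in both. CD69 (-0.26 and 0.21), HLA-DRA (-0.10 and 0.11), HSPG2 (0.30 and -0.32) and TTK (-0.19 and 0.12) differed in sign between the 2 cultures, and DNMT1 was at -0.03 and -0.07. Of the small RNAs, 53 of 68 small nucleolar and Cajal body RNAs (77.9%) and 14 of 22 mitochondrial tRNAs (63.6%) were lower in both batch 2 pairs. The share over all genes tested was 27.91%.

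**Figure D5:**
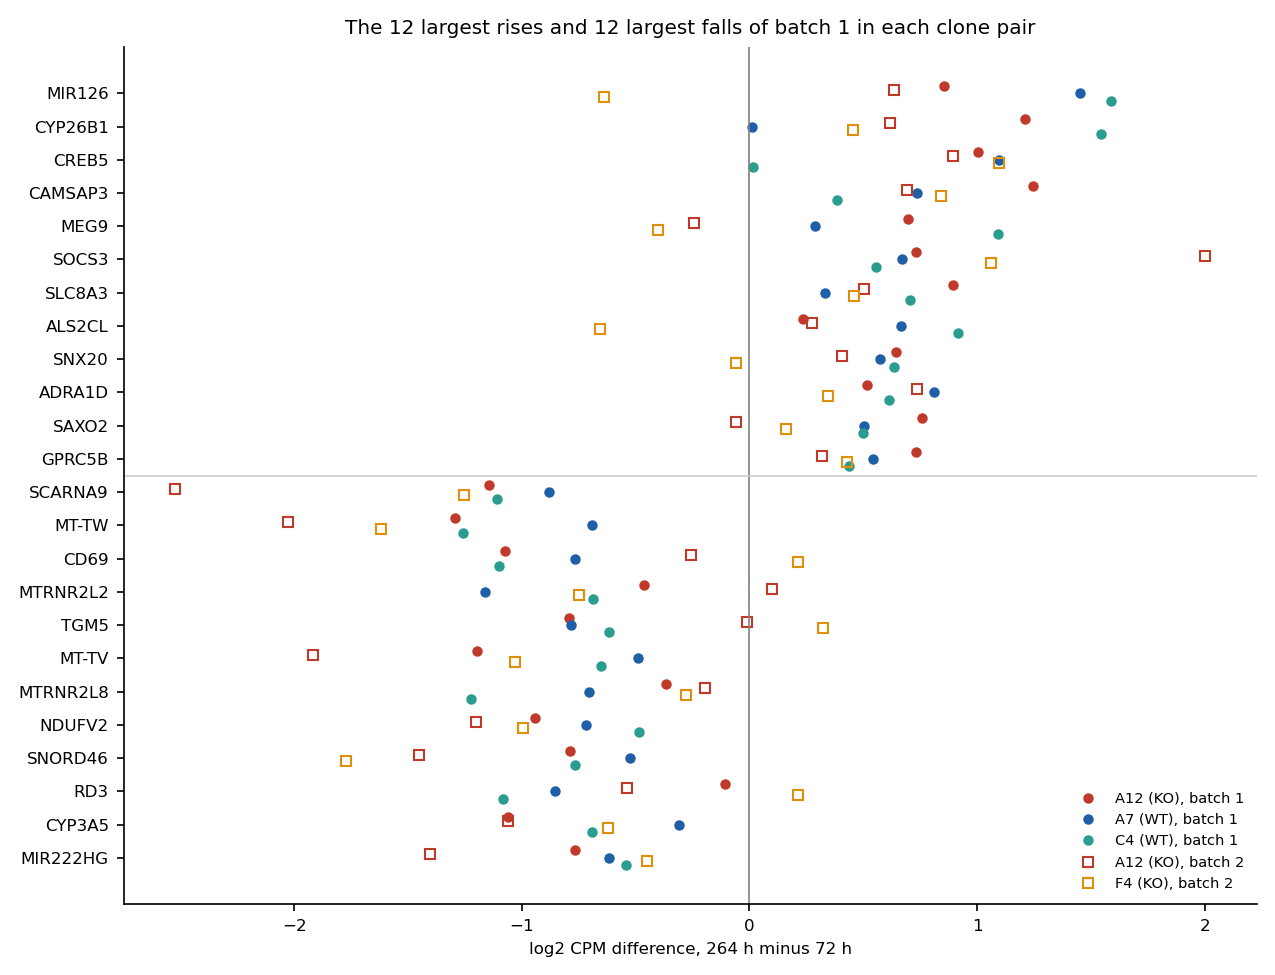
Rows are the 12 largest rises and 12 largest falls of batch 1, and the x axis gives the log2 CPM difference, 264 h minus 72 h in DMSO, in each clone pair of batch 1 (filled circles) and of batch 2 (open squares). SOCS3 and CAMSAP3 lie above 0 and SCARNA9, MT-TW and SNORD46 below 0 in all 5 pairs, while MIR126 (0.64 and -0.64) and CD69 (-0.26 and 0.21) lie on both sides of 0 in batch 2.

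Whether the drift depended on TET2 was tested as an interaction of genotype and harvest in the 11 DMSO libraries of both batches, with a term for each culture. Batch 2 has no WT clone, so genotype and batch are partly confounded. Of 16248 genes tested, edgeR called 0 (0%), with 1389 at an unadjusted p under 0.05, and it called 0 with a batch term in place of the culture terms (371 unadjusted). In batch 1 alone, where KO is represented by the single A12 pair, 4 genes were called, and all had a lower drift in A12 relative to the WT pairs. NEAT1, the scaffold RNA of nuclear paraspeckles, went from 355 to 283 CPM in A12, from 290 to 306 in A7 and from 229 to 260 in C4. Its KO minus WT difference in drift was -0.46 on the log2 scale (adjusted p = 2.41e-05, edgeR), and its drift in the batch 2 KO cultures was -1.20 in A12 and -1.34 in F4. The others were the host RNA of miR-142, MIR142HG (-0.44), the asparagine tRNA MT-TN (-0.38) and LRRC7 (-0.91). In the fit of 11 libraries NEAT1 stood at -1.10 (adjusted p = 0.582, edgeR), MIR142HG at -1.03 (0.549), LRRC7 at -0.82 (0.369) and MT-TN at -0.17 (0.674), and none was called.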

How the data were processed

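RNA was sequenced from TF-1 clones with a stranded mRNA kit on a NovaSeq, per the labels' protocols. The deposited table holds raw read counts for 57773 genes, made by the authors with featureCounts 1.6.2 in paired-end mode over exons of GENCODE release 19, per the file headers. The deposited table's gene length column, another quantity, was not used in any test. cutadapt, FastQC, STAR 2.6.1d, DESeq2 and the hg19 (GRCh37) build are named in the submitters' processing notes. The counting command sets no strand option, so overlapping genes cannot be told apart, and column names carry tags for poly(A) and adapter trimming and for repeat removal. A names table gave symbols to 51996 gene IDs and GENCODE release 29 to 342 more, while 5435 kept their ID. Sequences are from RefSeq tables on GRCh38.p14.

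CPM and log2 CPM (prior count 2, TMM) were computed in edgeR 4.0.16 under R 4.3.3. Genes passing filterByExpr were tested with the robust quasi-likelihood test, a harvest term and a clone term (2 residual and 144 prior degrees of freedom), with Benjamini-Hochberg adjustment over all genes tested. DESeq2 1.42.0 was an alternative, and GC and length correction was added after the data were seen. Clone labels pair the libraries as the same cells, which the correlations in the text check. No pair of libraries of the same harvest agreed within sampling noise, and pairs across harvests were not compared in this way. Named genes were the 12 largest rises and falls with a symbol, a mean of at least 2 CPM over the 3 paired clones in the higher harvest and the same direction in 3 pairs, up to 5 called members of each of 32 gene lists, and genes marked in the text as chosen after their values were seen. Genes not called, EGFL7, MT-TH, HLA-DQA1 and PIM1 were added for context. The comparison and the lists (696 of 719 memberships matched) were chosen with earlier results of these data known. Some members of the lists are not reported here.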

Additional observations from a re-analysis of the deposited data

Results flagged for a closer look

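Among the 4 libraries at 264 h, 1 library stood apart from the other 3 by Dixon's criterion for 6 of the 110 genes named. Chance meets this criterion in about 1 in 20 groups, a rate that gives about as many flags over 110 genes. Clone A7 was apart for ADRA1D (1.95 CPM) and ID1 (213 CPM). Clone C4 was apart for HMMR (160.4 CPM). Clone A12 was apart for FABP5 (123.0 CPM) and TET2 (40.9 CPM). Clone F4 was apart for EGFL7 (255.4 CPM), where the other 3 lay between 250.9 and 251.5 CPM. The clone term of the model absorbs such levels where the clone has both harvests.

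In batch 1 alone, the drift of the KO clone A12 differed from that of the 2 WT clones by a test of the interaction for LRRC7 (-0.91 on the log2 scale, adjusted p = 0.00978), NEAT1 (-0.46, adjusted p = 2.41e-05), MIR142HG (-0.44, adjusted p = 0.0368) and MT-TN (-0.38, adjusted p = 0.0225), all with edgeR. KO was 1 culture there, and a difference between genotypes cannot be told apart from a difference between cultures.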

How the results depend on the processing

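Of the settings tried, the count of 2350 called genes moved most with the clone term and the choice of libraries. It was 0 without the replicate block, 0 with the failed 72 h library of F4 included, 787 in DESeq2, 1362 when the 15 batch 1 libraries after treatment shared the estimate of spread (1349 of them among the 2350), and 931 with the 11 DMSO libraries of both batches. Leaving out each clone in turn gave 1121 to 2359. Size factors from DESeq2's method in edgeR (2412), total counts alone (2287), no filter on low counts (1988), a minimum mean of 1 CPM (2386) and the replicate block with GC and length correction (1581) stayed within 1.5 times. With total counts alone 59.6% of calls were higher, against 50.3%, and the joint fit of both batches gave 65.4%. Interaction calls numbered 0, 0 without the culture block and 4 in batch 1 alone.

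Of 99 called genes named in the text, 0 kept their call without the replicate block and 98 kept their direction without it, the exception being HBA2 (-0.0003915). With the failed library included 8 reversed: HBA2 (-0.14), ID1 (-0.017), CLSPN (0.30), HMMR (0.011), HSPB1 (-0.16), DDX21 (0.10), ZBTB33 (0.036) and EGFL7 (-0.072). IDI1 reversed in the joint fit of both batches (0.052). The block changed every named call, so the pairing by clone is part of each result. The cause was not tested for any of these shifts. DESeq2 gave no adjusted p for 28 of the 99, and kept 59 and lost 12 of the rest. At 2 CPM a library held few counts, and differences there are limited by counting error.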
